A study of Homo sapiens with 4 samples.

Results

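The 33 genes described here carry glucose into the cell, break it down to lactate and export the lactate, or are induced when oxygen falls. They were taken by name from a list of 24 glucose transporters, glycolytic enzymes, lactate transporters and PDK1, and 9 hypoxia-response genes, and all 33 were found among the 47251 genes of the deposited table. AGS cells, a human line grown from a gastric adenocarcinoma, were studied. Their RNA was sequenced in 4 libraries, 2 from cells carrying an shRNA against MFAP2 (sh-MFAP2) and 2 from cells carrying a scrambled shRNA (control). A short hairpin RNA (shRNA) is processed by the cell into a small RNA that directs the destruction of its target mRNA. According to the study's methods the hairpins were delivered by lentivirus and stable cells were selected with puromycin. The labels name a single hairpin without its target, and the target is taken from the study. No label says whether the libraries of a group came from separate cultures, and every p-value below then measures the spread between these libraries, which may be technical.

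In glycolysis, glucose enters through GLUT transporters, is phosphorylated by hexokinase, is split into 3-carbon sugars and is oxidised to pyruvate, which lactate dehydrogenase reduces to lactate. Many of the genes are direct targets of the hypoxia-inducible factors (HIFs), pairs of an oxygen-regulated alpha subunit (HIF1A or EPAS1) and the stable partner ARNT, which bind the core motifs ACGTG and GCGTG. In the presence of oxygen the EGLN prolyl hydroxylases mark the alpha subunits, and VHL then directs their destruction, a control that acts on the protein and not on its mRNA. Many tumour cells run glycolysis at a high rate with oxygen present, and usually carry the M2 form of pyruvate kinase.

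Values are FPKM, that is, fragment numbers divided by gene length and by library depth, so that they compare levels per length. Where a pair of values is given for a group, replicate 1 comes before replicate 2. The depth implied by the smallest steps between low values was 55100000 to 75200000 reads per library. MFAP2 itself stood at 0 FPKM in sh-MFAP2 cells, in both libraries, and at 0.0116 and 0.0138 FPKM in controls, or 2.02 and 3.02 reads at the implied depth. These levels lie at the floor of 3 counts, so that MFAP2 mRNA gave no fold change and no check of the labels. The study itself reports the knockdown of MFAP2 in its stable cell line by western blot and by quantitative PCR. The epithelial markers KRT8, KRT18, KRT19 and EPCAM lay between 193 and 803 FPKM in every library. Of the blood, endothelial and stromal markers, PTPRC, PECAM1, CDH5, COL3A1 and DCN were at or below 0.0298 FPKM, whereas CD68 was at 3.13 and 3.12 FPKM in sh-MFAP2 cells and 7.85 and 7.20 in controls, COL1A1 at 2.27 and 2.07 against 4.36 and 4.92, and VIM at 3.06 and 2.87 against 2.32 and 1.91. The part of these genes in the results below was not tested, and in RNA from whole cultures fewer cells with an mRNA and less of it per cell cannot be told apart.

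The glycolytic route was strongly expressed in all 4 libraries. The 33 genes made up 2.001% and 1.61% of all FPKM in sh-MFAP2 cells, and 1.70% and 1.71% in controls. GAPDH ranked 6 among all genes by its mean FPKM, ENO1 33, LDHB 84, PGAM1 88 and PKM 91. The hypoxia-response genes ranked from 3607 for P4HA1 to 18216 for CA9, and the first of them, P4HA1 and EGLN3 (4135), stood above the glycolytic HK2 (4858) and HK1 (5362). CA9, the carbonic anhydrase used as a marker of HIF activity, stood at 0.0145 and 0.0252 FPKM in sh-MFAP2 cells and at 0.0203 and 0.0160 FPKM in controls, which is at most 2.3 reads per library and not above the floor of 3 counts. The 9 hypoxia-response genes summed to between 22.2 and 31.5 FPKM, against 3187 to 3675 FPKM for the 24 genes of the glycolytic group.

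**Figure D1:**
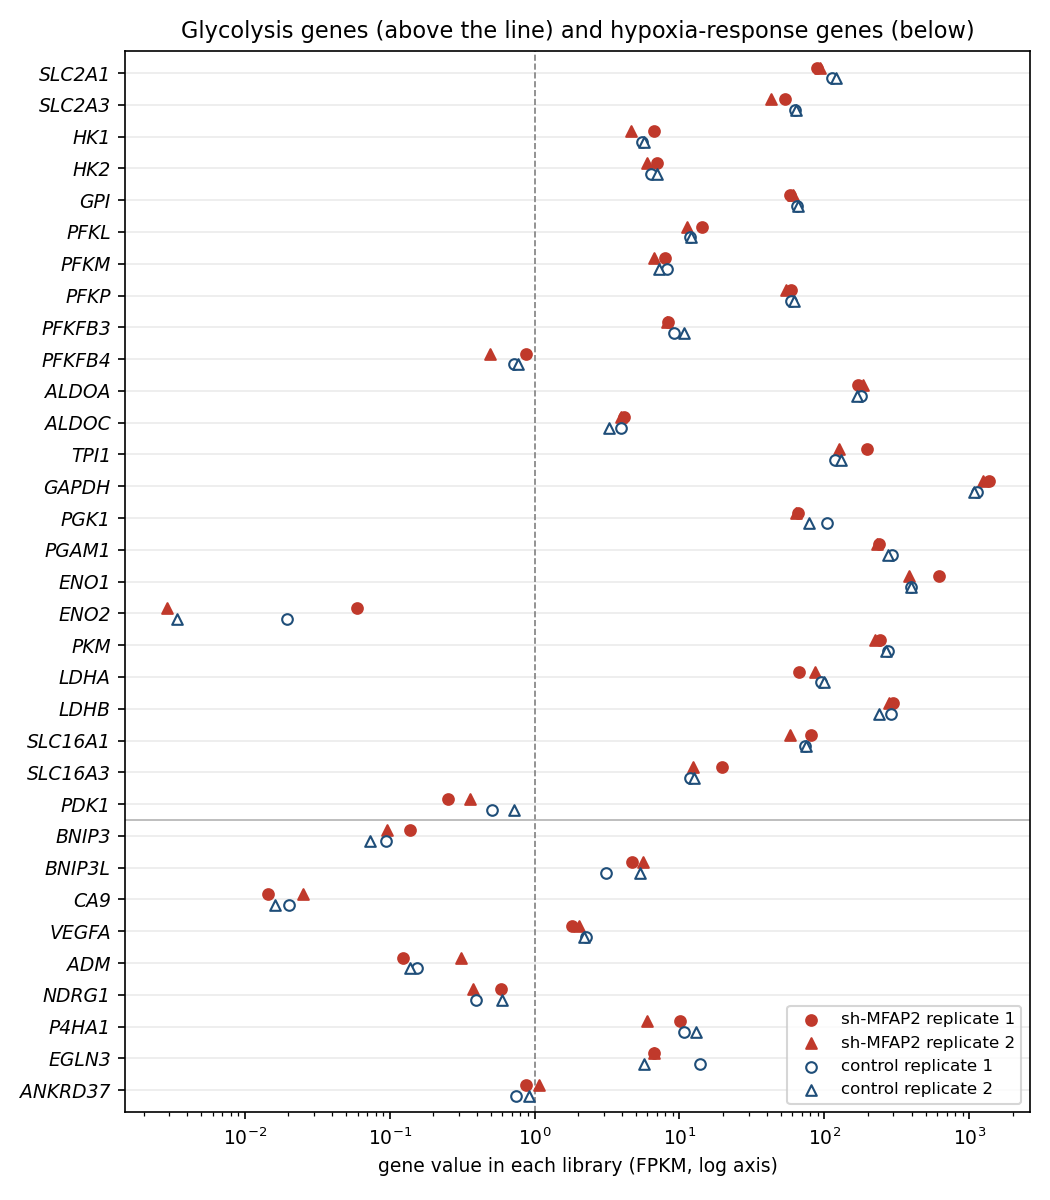
Gene value of the 33 genes in each library, in FPKM on a log axis, ordered along the pathway with the hypoxia-response genes below the grey line. Filled red symbols are the sh-MFAP2 libraries and open blue symbols the controls, circles replicate 1 and triangles replicate 2. The dashed line marks 1 FPKM, the minimum mean for testing, and 25 genes were tested. GAPDH lies at 1088 to 1363 FPKM and CA9 at 0.0145 to 0.0252 FPKM.

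Of the 33 genes, 25 had a mean of at least 1 FPKM and were tested, 21 of the glycolytic group and 4 of the hypoxia group. No gene of the 25 was called at p under 0.01 with an adjusted p under 0.05 by limma, where 0.273% of the 9873 genes tested were called. At an unadjusted p under 0.05, 1 of the 25 was lower in sh-MFAP2 cells (4%, with 8.41% of all genes tested) and 0 were higher (3.89% of all genes tested). In 11 of the 25, or 44%, both sh-MFAP2 values lay below both control values, as in 31.4% of all genes tested, and in 2, or 8%, both lay above, as in 17.5% of all genes tested. The median log2 difference, sh-MFAP2 minus control on the log2(FPKM + 1) scale, was -0.09 over the 25 genes and -0.05 over all genes tested. With 16 differences below 0 and 9 above 0, the genes showed no shared direction, and over all genes tested 5722 lay below 0 and 4151 above. The median was -0.07 over the 21 genes of the glycolytic group and -0.26 over the 4 of the hypoxia group. The differences of the 25 genes ranged from -0.55 for P4HA1 to 0.34 for TPI1. The libraries of 1 group differed from each other by a median of 0.13 among the sh-MFAP2 libraries and 0.09 among the controls on the same scale. Replicate 1 of sh-MFAP2 held the highest value of 10 of the 25 genes (22.9% of all genes tested had theirs there), and replicate 2 of sh-MFAP2 held the lowest value of 13 (25.3% of all genes tested).

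**Figure D2:**
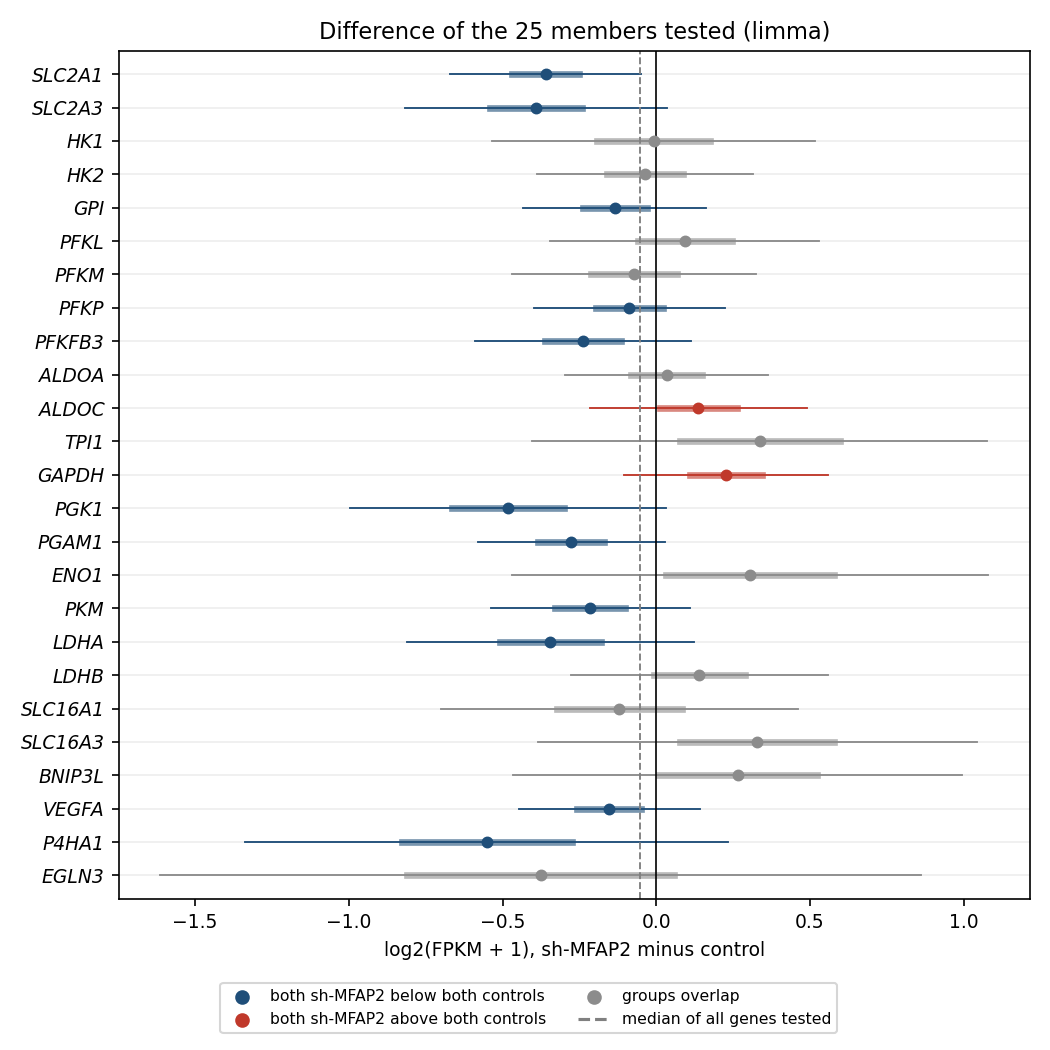
Difference between sh-MFAP2 and control for the 25 genes tested, on the log2(FPKM + 1) scale, with the point at the estimate, the thick bar at 1 standard error and the thin bar at the 95% confidence interval of limma (n = 2 libraries per group). Blue marks the 11 genes with both sh-MFAP2 values below both controls, red the 2 with both above and grey the rest, and the dashed line is the median of all genes tested at -0.05. The interval of SLC2A1 lies below 0, and those of the other 24 genes include 0.

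The listed glucose transporters, SLC2A1 and SLC2A3, were at lower values in both sh-MFAP2 libraries than in either control. SLC2A1 (ENSG00000117394), which encodes the widespread transporter GLUT1 and lies at chr1:42925375-42959176 on the minus strand of GRCh38, had 88.6 and 93.6 FPKM in sh-MFAP2 cells and 113.6 and 120.8 FPKM in controls. The groups did not overlap, and the libraries of a group stood closer to each other than to the other group. The log2 difference was -0.36 ± 0.11 (SE, n = 2 per group), with a 95% interval from -0.67 to -0.05, an unadjusted p of 0.033 and an adjusted p of 0.394 by limma. SLC2A1 was the single gene of the list below an unadjusted p of 0.05, and it did not hold this when the replicate number was a block or when sh-MFAP2 replicate 1, control replicate 1 or control replicate 2 was left out, while its difference stayed between -0.40 and -0.31 over all settings. SLC2A3, the high-affinity transporter GLUT3, had 53.4 and 43.0 FPKM in sh-MFAP2 cells and 62.6 and 63.7 FPKM in controls. Its log2 difference of -0.39 ± 0.15 (SE) had an adjusted p of 0.415 by limma, and without sh-MFAP2 replicate 2 it was -0.24. SLC2A14, a near-identical copy of SLC2A3 with which reads can be shared, had 0.371 to 0.852 FPKM. Of the transporters outside the list that were tested, SLC2A8 lay above both controls, at 10.5 and 7.20 against 6.65 and 7.15 FPKM (adjusted p = 0.568 by limma). SLC2A10 and SLC2A12 overlapped between the groups, at 0.977 to 1.20 and 1.90 to 3.17 FPKM. GLUT1 made up 65.5% ± 4.33 (SD, n = 2) of the sum of GLUT1 and GLUT3 in sh-MFAP2 cells and 65.0% ± 0.698 in controls, so that the mix of these transporters differed by less than the spread between libraries.

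The values of the upper pathway's enzymes lay close in the 2 groups. HK1 and HK2, the hexokinases that trap glucose in the cell, had 4.66 to 6.98 FPKM in sh-MFAP2 cells and 5.52 to 6.95 FPKM in controls, with log2 differences of -0.01 and -0.04 that turn to 0.036 and 0.0082 under scaling by median of ratios. HK1 had 6.63 and 4.66 FPKM in sh-MFAP2 cells and 5.52 and 5.70 FPKM in controls. HK2, the form induced in many tumours, had 6.98 and 6.01 FPKM in sh-MFAP2 cells and 6.40 and 6.95 FPKM in controls. The 95% intervals of the log2 differences ran from -0.53 to 0.52 for HK1 and from -0.39 to 0.32 for HK2. The share of HK2 was 53.8% ± 3.58 and 54.3% ± 0.880 (SD, n = 2 each) by gene value, and 41.9% and 42.4% by the sums of the transcripts. Which hexokinase was the more abundant thus depended on how a gene's length is set, and the share did not differ between the groups beyond the spread on either scale. GPI, the isomerase that follows, lay below both controls in both sh-MFAP2 libraries, at 57.8 and 61.0 against 64.5 and 66.0 FPKM, with an adjusted p of 0.602 by limma.

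Phosphofructokinase, the committed step, was present in all 3 isozymes. PFKP, the platelet type, had 58.8 and 54.5 FPKM in sh-MFAP2 cells and 59.0 and 61.5 FPKM in controls. PFKL, the liver type, had 14.4 and 11.3 FPKM in sh-MFAP2 cells and 11.8 and 12.0 FPKM in controls. PFKM, the muscle type, had 7.90 and 6.63 FPKM in sh-MFAP2 cells and 8.18 and 7.18 FPKM in controls. PFKP was thus the main isozyme, with 73.9% ± 1.97 of the sum in sh-MFAP2 cells and 75.5% ± 1.08 in controls (SD, n = 2 each). The share of PFKL was 16.7% ± 1.54 in sh-MFAP2 cells and 14.9% ± 0.0568 in controls, without overlap, at the smallest exact two-sided permutation p that 2 against 2 allows, 0.33. This difference of 1.76 percentage points was 0.672 without sh-MFAP2 replicate 1, 2.85 without sh-MFAP2 replicate 2 and 2.90 by protein-coding transcripts. PFKFB3, whose product makes the activator fructose 2,6-bisphosphate, had 8.40 and 8.17 FPKM in sh-MFAP2 cells and 9.20 and 10.8 FPKM in controls, with a log2 difference of -0.24 ± 0.12 (SE) and an adjusted p of 0.490 by limma. Without control replicate 2 the difference of PFKFB3 was -0.14. PFKFB4, its relative, had 0.495 to 0.877 FPKM and was not tested, and PFKFB3 made up 92.4% and 93.1% of the pair in the 2 groups. PFKFB2, a further isozyme outside the list of 33, had 4.12 and 4.70 FPKM in sh-MFAP2 cells and 1.88 and 2.57 FPKM in controls. Its log2 difference of 0.75 ± 0.16 (SE) was above 0 at an unadjusted p of 0.010 and an adjusted p of 0.330 by limma.

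In the lower pathway, GAPDH and PGK1, which act in consecutive steps, stood on opposite sides of the controls, and PGAM1 stood on the side of PGK1. GAPDH (ENSG00000111640), at chr12:6533927-6538374 on the plus strand, was higher in both sh-MFAP2 libraries, with 1363 and 1248 FPKM against 1141 and 1088 FPKM in the controls. Its log2 difference was 0.23 ± 0.12 (SE), with a 95% interval from -0.11 to 0.56 and an adjusted p of 0.489 by limma. GAPDH is also the reference gene of the study's quantitative PCR. Relative to it the log2 difference of SLC2A1 was -0.59, that of PGK1 -0.71 and that of PKM -0.44. These values take the 0.23 of GAPDH, itself not called, from each gene, and the same step would lower every gene tested alike. PGK1 (ENSG00000102144), phosphoglycerate kinase, which acts on the product of GAPDH and makes ATP, lies at chrX:77910739-78129296 on the plus strand. It had 65.8 and 63.5 FPKM in sh-MFAP2 cells and 104.7 and 78.5 FPKM in controls, below both controls in both libraries. Its log2 difference was -0.48 ± 0.18 (SE), with a 95% interval from -0.997 to 0.033 and an adjusted p of 0.415 by limma, and without control replicate 1 it was -0.28. PGAM1, the mutase of the next step, had 238 and 233 FPKM in sh-MFAP2 cells and 293 and 277 FPKM in controls. The groups of PGAM1 did not overlap and its log2 difference was -0.28 ± 0.11 (SE, adjusted p = 0.415 by limma). PGAM4, an intronless copy of PGAM1 that lies on the minus strand inside the annotated span of PGK1, had 4.28 to 6.44 FPKM, and how the counting divided reads among PGAM1, PGAM4 and PGK1 is not given in the sources used here.

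ALDOA, ALDOC, TPI1 and ENO1, which encode aldolases, triosephosphate isomerase and enolase, did not lie below both controls in both sh-MFAP2 libraries. ALDOA had 170 and 186 FPKM in sh-MFAP2 cells and 179 and 168 FPKM in controls. ALDOC, the brain-type aldolase, had 4.14 and 3.95 FPKM in sh-MFAP2 cells and 3.93 and 3.26 FPKM in controls. ALDOC was the other gene with both sh-MFAP2 values above both controls, by 0.14 ± 0.12 (SE) on the log2 scale. This was 0.032 without control replicate 2, 0.24 without control replicate 1, 0.22 under quantile normalization and 0.036 by sums of transcripts. ALDOA made up 97.8% ± 0.205 and 98.0% ± 0.178 (SD, n = 2 each) of the aldolase sum. ENO1, the ubiquitous enolase, had 621 and 384 FPKM in sh-MFAP2 cells and 395 and 394 FPKM in controls. TPI1, which interconverts the triose phosphates, had 198 and 126 FPKM in sh-MFAP2 cells and 119 and 131 FPKM in controls. For ENO1, TPI1 and the lactate transporter SLC16A3 alike, sh-MFAP2 replicate 1 stood alone above the other 3 libraries. Their log2 differences of 0.30, 0.34 and 0.33 became -0.04, 0.01 and 0.01 without that library. ENO2, the neuronal enolase, was at or below 0.0596 FPKM, so that ENO1 made up over 99.9% of the sum of ENO1 and ENO2 in every library. ENO3, the muscle enolase outside the list, was below both controls at 1.75 and 1.80 against 2.12 and 1.87 FPKM, with an adjusted p of 0.679 by limma.

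PKM encodes pyruvate kinase, and its transcripts carry either the M1 exon or the M2 exon, which give an enzyme that is always active or one that is regulated. PKM (ENSG00000067225) lies at chr15:72199029-72231822 on the minus strand of GRCh38. Both exons are 167 bases long and are identical at 105 positions (62.9%), and they are shown because the share of M1 and M2 rests on the reads that tell them apart. They were read from the GENCODE 29 transcripts, 5′ to 3′, and capitals mark the 62 bases at which they differ. The M1 exon lies at chr15:72203022-72203188 and the M2 exon at chr15:72202454-72202620.
PKM M1 exon: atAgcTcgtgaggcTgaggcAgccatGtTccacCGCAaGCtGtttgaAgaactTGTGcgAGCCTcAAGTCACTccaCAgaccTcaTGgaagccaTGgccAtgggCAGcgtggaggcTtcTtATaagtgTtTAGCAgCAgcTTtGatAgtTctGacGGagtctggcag
PKM M2 exon: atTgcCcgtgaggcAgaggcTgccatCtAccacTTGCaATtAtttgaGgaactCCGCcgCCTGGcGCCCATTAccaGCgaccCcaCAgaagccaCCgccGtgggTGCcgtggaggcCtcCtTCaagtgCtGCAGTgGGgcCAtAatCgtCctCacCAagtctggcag

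The gene value of PKM was 244 and 223 FPKM in sh-MFAP2 cells and 276 and 265 FPKM in controls. Both sh-MFAP2 libraries lay below both controls, and the log2 difference was -0.21 ± 0.11 (SE, adjusted p = 0.497 by limma). The 3 transcripts with the M2 exon summed to 868 and 789 FPKM in sh-MFAP2 cells and to 979 and 939 FPKM in controls. The 6 transcripts with the M1 exon summed to 21.8 and 22.1 FPKM in sh-MFAP2 cells and to 26.4 and 27.7 FPKM in controls. M2 made up 97.5% and 97.3% of both forms in sh-MFAP2 cells and 97.4% and 97.1% in controls. The means of 97.4% ± 0.187 and 97.3% ± 0.169 (SD, n = 2 each) differed by 0.160 percentage points (exact permutation p = 0.667), within the spread between libraries. AGS cells of both groups thus carried PKM almost wholly in the M2 form. A single transcript, ENST00000335181, held 93.4% to 94.8% of all PKM transcript FPKM. Of the M1 transcripts, ENST00000565184 had 13.3 and 17.2 FPKM in sh-MFAP2 cells and 21.4 and 21.1 FPKM in controls. ENST00000565154 had 1.999 to 6.34 FPKM, and ENST00000319622 had 1.12 and 1.25 FPKM in sh-MFAP2 cells and 2.60 and 2.48 FPKM in controls. The remaining transcripts above 1 FPKM in any library were ENST00000389093 and ENST00000449901 with the M2 exon, ENST00000568459 with the M1 exon, and 8 that hold neither exon, at up to 8.49 FPKM. Among the splicing factors that act on this choice, PTBP1, HNRNPA1 and HNRNPA2B1 had log2 differences of -0.02, 0.28 and -0.29, none past an unadjusted p of 0.05 by limma. SRSF3, a further splicing factor that was followed, was at -0.67 ± 0.39 (SE), also not past that limit. It had 19.7 and 25.2 FPKM in sh-MFAP2 cells and 51.3 and 25.4 FPKM in controls, a wide gap within the control group.

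Lactate dehydrogenase is a tetramer of A and B chains, of which A favours the making of lactate. LDHA (ENSG00000134333) had 67.3 and 86.3 FPKM in sh-MFAP2 cells and 95.3 and 98.9 FPKM in controls. Both sh-MFAP2 libraries lay below both controls, and the log2 difference was -0.34 ± 0.16 (SE, adjusted p = 0.466 by limma). LDHB had 299 and 278 FPKM in sh-MFAP2 cells and 287 and 238 FPKM in controls. B thus exceeded A per length in every library, and A made up 21.0% ± 3.79 of the sum in sh-MFAP2 cells and 27.1% ± 3.13 in controls (SD, n = 2 each). By the sums of transcripts the shares were 24.5% ± 4.20 and 34.0% ± 2.80. On both scales the groups did not overlap, at the smallest exact permutation p of 0.33. Without sh-MFAP2 replicate 1 the log2 difference of LDHA was -0.17, and without sh-MFAP2 replicate 2 it was -0.52. The difference in share, -6.09 percentage points by gene value, was -3.41 without sh-MFAP2 replicate 1, and leaving out control replicate 2 gave -3.88.

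For the lactate transporters the shares were apart where the levels of the genes were not. SLC16A1, which encodes MCT1, had 81.1 and 57.6 FPKM in sh-MFAP2 cells and 73.7 and 75.1 FPKM in controls. SLC16A3, which encodes MCT4, the exporter of highly glycolytic cells, had 19.7 and 12.4 FPKM in sh-MFAP2 cells and 11.9 and 12.6 FPKM in controls. Neither gene separated the groups, whereas the share of SLC16A1 in their sum was 81.4% ± 1.31 in sh-MFAP2 cells and 85.9% ± 0.385 in controls (SD, n = 2 each) without overlap, with an exact permutation p of 0.33. By sums of transcripts that share was 57.4% and 64.8%. Of the 12 shares compared, counting PKM2, those of PFKL, LDHA and SLC16A1 had groups that did not overlap. For 2 against 2 libraries without a difference, such a separation has a probability of 0.33, so that this count does not show a difference. None of the 12 had a Benjamini-Hochberg adjusted p below 1. PDK1, the kinase that inactivates pyruvate dehydrogenase, had 0.252 and 0.357 FPKM in sh-MFAP2 cells and 0.511 and 0.718 FPKM in controls. It fell under the minimum for testing, and in a fit without that minimum its log2 difference was -0.31 ± 0.10 (SE) at an adjusted p of 0.539 by limma.

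Transcripts of the 33 genes were also listed singly, and 118 of them had a mean of at least 1 FPKM. Transcripts of 1 gene share reads, so that their values are estimates that trade against each other. Of the 118, 0 were called by limma, as were 0% of the 22312 transcripts tested, whereas 8 (6.78%) were lower at an unadjusted p under 0.05, with 4.41% of all transcripts tested, and 3 (2.54%) were higher, with 3.22% of all. Of the 27 genes with at least 1 FPKM over their transcripts in every library, 18 had the same leading transcript in all 4 libraries, and in 13 that transcript held over 80% in every library. LDHA and TPI1 were among the 9 genes whose leading transcript changed from library to library, and LDHA and TPI1 between them held 8 of the 11 transcripts past an unadjusted p of 0.05. The grouping of the LDHA transcripts by start and the choice of TPI1 were made after the values were seen.

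LDHA transcripts start at 2 places. On GRCh38, 8 protein-coding transcripts start between chr11:18394388 and 18394704 and 4 between chr11:18396266 and 18396843. Their values are estimates from shared reads, and use of the starts was not measured. The windows before both starts are shown because the estimated shares of these classes did not overlap between the groups. They are the 250 bases before the RefSeq starts (GRCh38.p14), at chr11:18394313-18394562 and chr11:18396101-18396350 on the plus strand, and the outermost GENCODE starts lie inside them. Capitals mark the letters of the HIF core, ACGTG or GCGTG, or their reverse complements CACGT or CACGC. The letters CACGTG hold overlapping matches, read as ACGTG on both strands, and are also the E-box bound by MYC.
LDHA upstream start: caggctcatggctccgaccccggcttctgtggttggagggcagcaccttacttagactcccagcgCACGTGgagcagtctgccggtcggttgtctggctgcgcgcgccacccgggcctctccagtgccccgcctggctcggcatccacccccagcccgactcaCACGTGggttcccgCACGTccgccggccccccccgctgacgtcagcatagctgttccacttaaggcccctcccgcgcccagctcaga
LDHA downstream start: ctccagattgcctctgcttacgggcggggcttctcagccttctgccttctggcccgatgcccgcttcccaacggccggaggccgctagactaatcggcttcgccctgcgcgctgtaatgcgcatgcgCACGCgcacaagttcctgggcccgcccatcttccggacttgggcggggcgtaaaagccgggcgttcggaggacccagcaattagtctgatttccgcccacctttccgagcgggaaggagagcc

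The upstream window held 5 matches, 4 of them in 2 copies of CACGTG, and the downstream window held 1 match and no CACGTG. Matches to the core were common, since 43.2% of 35116 RefSeq promoters of the same length held at least 1, as did 31 of 54 promoters (57.4%) of the 28 listed genes that were matched by symbol. CACGTG was in 6.34% of all promoters and in 8 of the 54 (14.8%). A match gives the letters and does not show binding. The window before PGK1, at chrX:78103998-78104247 on the plus strand, is shown for comparison as that of the glycolytic gene with the lowest log2 difference, and held 3 matches.
PGK1 start: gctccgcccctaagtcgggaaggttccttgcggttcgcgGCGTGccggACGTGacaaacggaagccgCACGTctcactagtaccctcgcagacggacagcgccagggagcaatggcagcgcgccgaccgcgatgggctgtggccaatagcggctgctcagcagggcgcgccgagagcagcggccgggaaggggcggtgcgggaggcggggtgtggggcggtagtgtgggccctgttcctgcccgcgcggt

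The protein-coding LDHA transcripts with the upstream start summed to 154 and 189 FPKM in sh-MFAP2 cells and to 122 and 166 FPKM in controls. Those with the downstream start summed to 44.2 and 38.8 FPKM in sh-MFAP2 cells and to 159 and 123 FPKM in controls. The downstream start thus took 22.3% and 17.0% of the protein-coding FPKM in sh-MFAP2 cells and 56.7% and 42.5% in controls. The means were 19.6% ± 3.73 and 49.6% ± 10.0 (SD, n = 2 each), without overlap, at the smallest exact permutation p of 0.33. ENST00000379412, from the downstream start, had 23.9 and 21.2 FPKM in sh-MFAP2 cells and 82.7 and 65.7 FPKM in controls, a log2 difference of -1.67 ± 0.20 (SE, adjusted p = 0.262 by limma). ENST00000540430, from the same first exon, had 18.7 and 16.9 FPKM in sh-MFAP2 cells and 64.3 and 53.0 FPKM in controls, with a log2 difference of -1.66 ± 0.19 (SE, adjusted p = 0.243 by limma). The leading upstream transcript, ENST00000422447, varied within the groups, with 71.4 and 162 FPKM in sh-MFAP2 cells and 32.6 and 78.1 FPKM in controls. Other transcripts from the upstream start lay below both controls, among them ENST00000227157 at 34.9 and 9.03 FPKM against 46.4 and 44.3 FPKM, ENST00000396222 at 10.8 and 8.72 against 15.4 and 23.9 FPKM, and ENST00000543445 at 1.35 and 0.520 against 1.99 and 2.02 FPKM. The sum of the downstream class was thus below both controls in both sh-MFAP2 libraries, whereas the sum of the upstream class overlapped between the groups and its transcripts did not share a direction.

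TPI1 showed an exchange between nested transcripts, whereas for LDHA the sum of the downstream class alone was apart. ENST00000396705, which starts at chr12:6867531, had 88.5 and 76.8 FPKM in sh-MFAP2 cells and 256 and 242 FPKM in controls, with a log2 difference of -1.58 ± 0.16 (SE, adjusted p = 0.207 by limma). ENST00000613953, which starts further upstream at chr12:6867420, had 144 and 82.9 FPKM in sh-MFAP2 cells and 1.24 and 18.0 FPKM in controls. ENST00000229270, with the outermost start at chr12:6867119, had 120 and 68.8 FPKM in sh-MFAP2 cells and 1.15 and 15.5 FPKM in controls. The shortest form held 97.7% and 87.3% of TPI1 in the controls and 24.8% and 32.8% in sh-MFAP2 cells. All 3 have 7 exons and differ in how far their ends reach, and the sum over all TPI1 transcripts was 357 and 234 FPKM in sh-MFAP2 cells and 262 and 277 FPKM in controls. That sum overlapped between the groups, as did the gene value, and its log2 difference was 0.10.

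**Figure D3:**
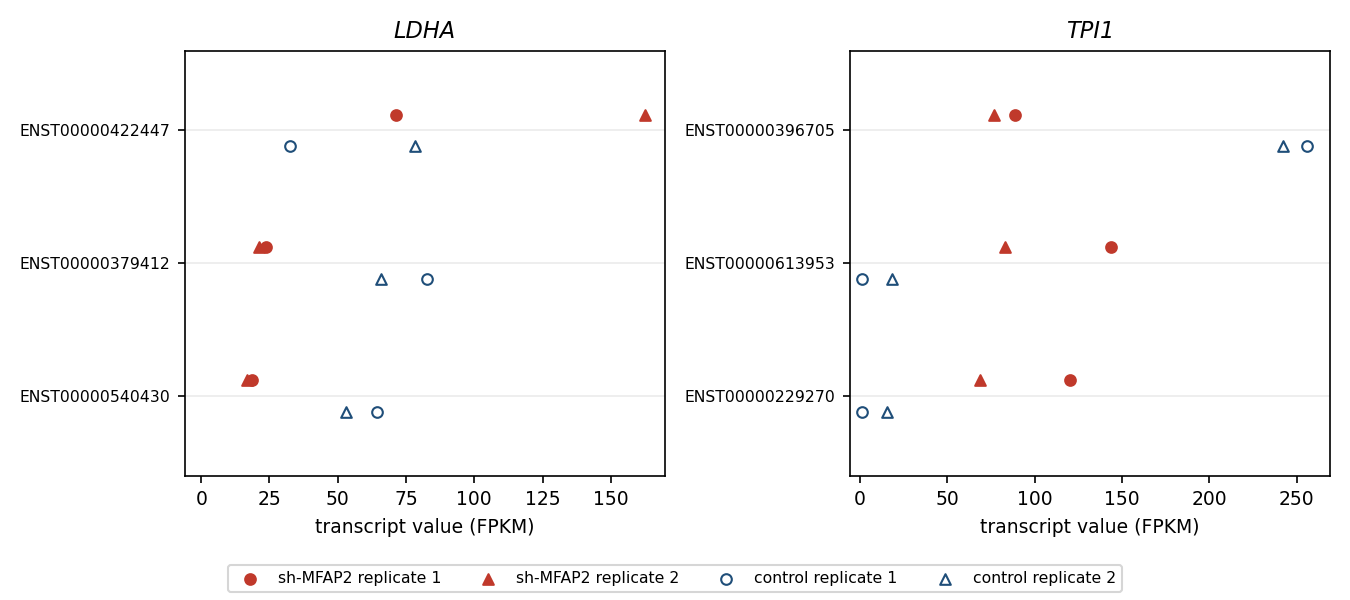
Values of 3 LDHA transcripts (left) and 3 TPI1 transcripts (right) in each library, in FPKM on linear axes, with filled red symbols for sh-MFAP2 and open blue symbols for control (circles replicate 1, triangles replicate 2). ENST00000379412 and ENST00000540430 of LDHA and ENST00000396705 of TPI1 lie below the controls in both sh-MFAP2 libraries, and the other 2 TPI1 transcripts above them. No transcript was called by limma.

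The other genes whose leading transcript differed between libraries varied inside the groups. For PFKM, ENST00000359794 held 44.1% and 67.6% in sh-MFAP2 cells and 27.8% and 73.7% in controls. For BNIP3L, ENST00000620910 held 42.8% and 20.6% in sh-MFAP2 cells and 93.9% and 43.7% in controls. The leading transcript held 27.9% to 68.3% of ALDOC, 24.9% to 49.8% of P4HA1, 40.6% to 52.6% of PFKFB3, 21.6% to 52.0% of ANKRD37 and 14.8% to 21.5% of VEGFA. VEGFA thus had no dominant form, in contrast to PGAM1, PKM, SLC2A1 and PGK1, whose leading transcript held over 93% in every library.

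Among the hypoxia-response genes, the 4 that were tested gave a median log2 difference of -0.26, and none separated from the spread by the test. P4HA1, a subunit of the enzyme that hydroxylates prolines of collagen, had 10.0 and 5.94 FPKM in sh-MFAP2 cells and 10.8 and 13.0 FPKM in controls. It had the lowest log2 difference of the list, -0.55 ± 0.28 (SE, adjusted p = 0.480 by limma), which was -0.22 without sh-MFAP2 replicate 2 and -0.89 without sh-MFAP2 replicate 1. VEGFA, the growth factor of blood vessels, had 1.82 and 2.02 FPKM in sh-MFAP2 cells and 2.27 and 2.21 FPKM in controls. Both sh-MFAP2 values of VEGFA lay below both controls, by -0.15 ± 0.10 (SE, adjusted p = 0.565 by limma), and by -0.32 by sums of transcripts. EGLN3, a HIF prolyl hydroxylase that HIF itself induces, had 6.68 and 6.71 FPKM in sh-MFAP2 cells and 13.9 and 5.67 FPKM in controls. Control replicate 1 alone was high, and the log2 difference of EGLN3 changed from -0.38 to 0.21 without it.

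BNIP3 and BNIP3L, which mark mitochondria for removal, were unequal in level. BNIP3L had 4.68 and 5.65 FPKM in sh-MFAP2 cells and 3.13 and 5.32 FPKM in controls, a log2 difference of 0.27 ± 0.26 (SE) that was -0.10 by sums of transcripts and -0.04 without control replicate 1. BNIP3 had 0.138 and 0.0956 FPKM in sh-MFAP2 cells and 0.0947 and 0.0727 FPKM in controls, or 2.26% ± 0.845 and 2.14% ± 1.12 of the pair (SD, n = 2 each). The remaining members were low as well. ADM, the vasodilator peptide adrenomedullin, had 0.124 to 0.311 FPKM, NDRG1 had 0.376 to 0.599 FPKM and ANKRD37 had 0.749 to 1.07 FPKM, with groups that overlapped. Differences in these genes were thus not open to test at this minimum, which is not the same as their absence. In the fit without a minimum the log2 differences were 0.04 for BNIP3, 0.08 for ADM, -0.02 for NDRG1 and 0.11 for ANKRD37. Their adjusted p there lay between 0.732 and 0.973 by limma.

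The HIF pathway itself was followed in a list of 17 subunits and regulators outside the 33 genes, of which 15 were tested. Of these, 0 were called. At an unadjusted p under 0.05, 3 of the 15 were lower in sh-MFAP2 cells and 0 were higher, where 8.41% and 3.89% of all genes tested were lower and higher. The median log2 difference was -0.22, with -0.05 over all genes tested. HIF1A, at chr14:61695513-61748259, had 27.9 and 35.3 FPKM in sh-MFAP2 cells and 51.8 and 55.5 FPKM in controls. The groups were apart by more than the spread within them, with a log2 difference of -0.75 ± 0.16 (SE), an unadjusted p of 0.010 and an adjusted p of 0.330 by limma, and it lay between -0.92 and -0.59 over the alternative settings. ARNT, its partner, had 4.24 and 4.59 FPKM in sh-MFAP2 cells and 6.43 and 6.93 FPKM in controls, a log2 difference of -0.50 ± 0.11 (SE, adjusted p = 0.331 by limma). EGLN1, the main hydroxylase that marks HIF alpha subunits, had 3.31 and 2.06 FPKM in sh-MFAP2 cells and 11.7 and 12.4 FPKM in controls. Its log2 difference of -1.84 ± 0.20 (SE, adjusted p = 0.147 by limma) was larger than that of any of the 25 genes tested, and over the alternative settings it lay between -2.16 and -1.60. EPAS1, the HIF-2 alpha subunit, had 5.63 and 5.47 FPKM in sh-MFAP2 cells and 6.71 and 7.20 FPKM in controls, and VHL had 1.91 and 2.91 against 3.43 and 3.57 FPKM. Both were below both controls, with adjusted p of 0.410 and 0.445 by limma. Thus mRNAs of HIF1A, EPAS1, ARNT and EGLN1 were at lower levels, while none of them passed the call. The list as a whole was mixed, with 10 of the 15 differences below 0 and 5 above. Both sh-MFAP2 values lay below both controls in 7 of the 15 (31.4% of all genes tested) and above both in 2 (17.5%). These 2 were TCEB2, at 108 and 145 against 107 and 95.7 FPKM, and SIAH2, at 9.57 and 7.87 against 7.78 and 7.79 FPKM. EGLN2 overlapped between the groups.

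**Figure D4:**
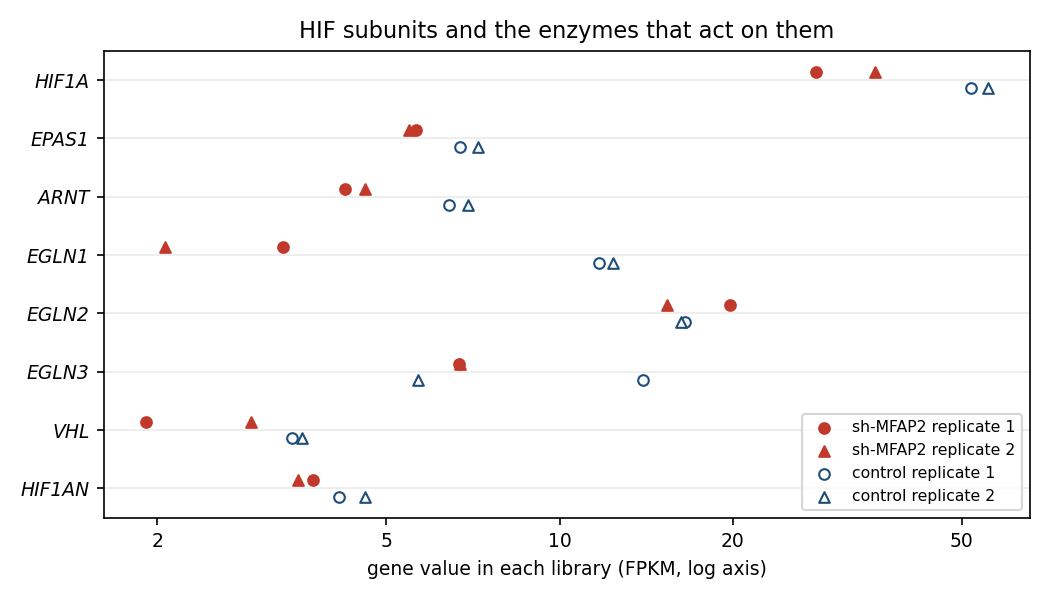
Gene value of HIF1A, EPAS1 and ARNT (subunits), EGLN1, EGLN2, EGLN3 and HIF1AN (hydroxylases) and VHL in each library, in FPKM on a log axis, with filled red symbols for sh-MFAP2 and open blue symbols for control. EGLN1 lies at 2.06 to 3.31 FPKM in sh-MFAP2 cells and 11.7 to 12.4 FPKM in controls, and EGLN3 is high in control replicate 1 alone at 13.9 FPKM.

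Another 37 genes known to be induced by hypoxia were followed, and 25 of them were tested. None was called. Of the 25, 5 were lower in sh-MFAP2 cells at an unadjusted p under 0.05 (8.41% of all genes tested) and 0 were higher (3.89%), and the median log2 difference was -0.18, with -0.05 over all genes tested. The 5 were KDELR3, a receptor that returns proteins to the endoplasmic reticulum, at -1.32, CCNG2 at -0.55, the transferrin receptor TFRC at -0.45, the histone demethylase KDM3A at -0.42 and the transcription factor BHLHE40 at -0.38. KDELR3 had 6.71 and 8.29 FPKM in sh-MFAP2 cells and 22.4 and 18.1 FPKM in controls, with an adjusted p of 0.200 by limma. CCNG2, a cyclin linked to growth arrest, had 1.12 and 1.35 FPKM in sh-MFAP2 cells and 2.24 and 2.29 in controls. TFRC had 19.4 and 17.5 FPKM against 27.9 and 23.4 in controls, KDM3A had 3.003 and 2.85 against 4.30 and 4.19, and BHLHE40 had 13.4 and 14.2 against 18.9 and 17.8. Both sh-MFAP2 libraries lay below both controls in 12 of the 25 genes, the 5 among them, and above both in 1. Of all genes tested, 31.4% lay below and 17.5% above.

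In the routes that branch from glycolysis, some genes lay past an unadjusted p of 0.05 by limma. Of all genes tested, 8.41% were lower and 3.89% higher at that limit, and their median log2 difference was -0.05. Among the tested genes of the pentose phosphate route the median log2 difference was -0.24, and RPE was lower at an unadjusted p under 0.05, by -0.33 on the log2 scale, with 6.89 and 7.44 FPKM in sh-MFAP2 cells and 8.92 and 9.56 in controls. Of 11 genes for pyruvate entry into mitochondria, PDP2 at -1.10 and PDPR at -0.56, a phosphatase of pyruvate dehydrogenase and its regulator, were lower at the same limit. PDP2 had 0.0446 and 0.782 FPKM in sh-MFAP2 cells and 2.12 and 1.74 in controls, a wide gap within the sh-MFAP2 group, and PDPR had 2.03 and 2.64 against 3.84 and 3.97. Of 13 tested genes of gluconeogenesis and side branches, PGM2 alone was lower, at -0.40, with 14.4 and 15.2 FPKM against 19.3 and 20.2 in controls, and the median over the 13 was 0.00. Of 10 tested isozymes outside the list, ADPGK was lower at -0.43, with 2.55 and 3.37 FPKM against 4.30 and 4.32 in controls, and PFKFB2 higher as given above. Of 16 tested upstream regulators, PRKAA1, a catalytic subunit of the energy sensor AMPK, was lower at -0.39 and TXNIP, which restrains glucose uptake, was higher at 0.55. PRKAA1 had 5.87 and 6.96 FPKM in sh-MFAP2 cells and 9.14 and 8.32 in controls. TXNIP had 7.16 and 6.07 FPKM in sh-MFAP2 cells and 4.22 and 4.12 FPKM in controls. MYC, an activator of many glycolytic genes, had 22.3 and 45.8 FPKM in sh-MFAP2 cells and 29.7 and 36.0 FPKM in controls, so that its sh-MFAP2 libraries lay on both sides of the controls. No gene of these lists was called by limma.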

How the data were processed

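RNA of 2 sh-MFAP2 and 2 control libraries of AGS cells was measured. The authors deposited a gene table and a transcript table whose values were taken here as FPKM from their non-whole values and from the steps between low values, since the tables do not name the unit. The submitters' processing notes name hg38. The aligner, annotation and counting program are not given in the sources used here. A gene's value equalled its transcripts' values, weighted by length, divided by 1 length per gene, so values of genes with long annotated exons are lower than the sums of their transcripts, and isozyme shares were given on both scales. Of the gene identifiers, 43715 (92.5%) and all 33 genes of the list were found in GENCODE 29, from which coordinates and exons were taken. Promoters are RefSeq's (GRCh38.p14), and 28 of 33 symbols matched.

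Samples were grouped by their labels. The 9873 genes averaging 1 FPKM or more went into a linear model of log2(FPKM + 1) by lmFit, then eBayes with trend, in limma 3.58.1 (R 4.3.3) and Benjamini-Hochberg adjustment over all of them, and transcripts likewise. A fold on this scale understates the change of low genes. Calls needed p under 0.01 and adjusted p under 0.05. Shares were compared by exact two-sided permutation over the 4 libraries, where the smallest p is 0.33. Of low values 60.5% to 62.9% lay within 0.05 of a whole read, against 10% by chance, so that reads were not recovered gene by gene, no count test was used and no counting interval can be given. Read numbers and the floor of 3 counts rest on the implied depth. The fit and the step finder were tested on simulated data. Other tools were scipy 1.17.1, numpy 2.4.6, pandas 2.3.3 and matplotlib 3.10.9 under Python 3.11.15.

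The genes and lists were chosen with earlier results of these data known. Values in every library are given for genes past an unadjusted p of 0.05, genes without overlap and a log2 difference of at least 0.3, all isozymes in a share, PKM, GAPDH, VEGFA and CA9, and for genes of other lists past an unadjusted p of 0.05 (except 1, below) with HIF1A, EPAS1 and MYC. Other genes and transcripts given by library, among them GPI, PGAM1, PDK1, EGLN3, TPI1, VHL, SLC2A8, ENO3 and the LDHA start classes, were chosen after their values were seen. Alternatives were quantile normalization, no minimum, median of ratios, a pseudocount of 0.1, a minimum mean of 5 FPKM, eBayes without trend, sums of transcripts, protein-coding transcripts, the replicate block and leaving out each library. Same-numbered libraries did not deviate together (correlation -0.06 over genes), and the numbers were not used as pairs in the main fit. With 2 libraries per group, this correlation cannot show whether same-numbered libraries were prepared together. Whether the library kit kept strand is not given, so overlapping genes on opposite strands cannot be told apart. Processed copies of the 33 genes found by symbol numbered 5, at no more than 0.0171 FPKM. The result of 1 gene of the other lists is not reported here.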

Additional observations from a re-analysis of the deposited data

How the results depend on the processing

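No gene of the list was called under any alternative setting. The 1 gene below an unadjusted p of 0.05, SLC2A1, became 2 genes without a minimum (with PDK1), 2 by sums of transcripts (with LDHA), 0 with the replicate block, and 0 to 5 when 1 library was left out. These were 0 without control replicate 1, 2 without control replicate 2 (PGK1, EGLN3), 3 without sh-MFAP2 replicate 1 (P4HA1, SLC16A1, SLC2A3) and 5 without sh-MFAP2 replicate 2 (ENO1, LDHA, SLC16A3, SLC2A1, TPI1). With the replicate block 722 of all genes lay below 0.05 and 0 were called. Genes without overlap numbered 13, and 16 to 21 when 1 library was left out, since fewer values overlap less. The median log2 difference of the hypoxia-response genes, -0.26, was -0.46 at a mean of at least 5 FPKM, 0.0023 without a minimum, -0.31 with a pseudocount of 0.1, -0.22 under median of ratios, -0.20 under quantile normalization, -0.21 by sums of transcripts, and -0.30 to -0.091 when 1 library was left out. That of the glycolytic group, -0.07, was -0.14 to 0.039 when 1 library was left out. Signs turned for 9 genes. HK1 and HK2 were at 0.036 and 0.0082 under median of ratios and at 0.067 and 0.030 under quantile normalization, and BNIP3L at -0.099 by sums of transcripts. When 1 library was left out, the log2 difference ran from -0.22 to 0.21 for HK1, -0.13 to 0.057 for HK2, -0.070 to 0.26 for PFKL, -0.18 to 0.039 for PFKM, -0.030 to 0.097 for ALDOA, -0.042 to 0.65 for ENO1, -0.36 to 0.12 for SLC16A1, -0.042 to 0.57 for BNIP3L and -0.96 to 0.21 for EGLN3. The cause of these changes was not tested. Depth limits CA9 and ENO2, with no more than 15.3 reads in any library.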
